A study of Mus musculus with 10 samples.

Results

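The regions described here are the stretches of mouse chromosome 7 that the study listed for the transcription factor Klf9. All rows of the deposited list with chromosome 7 as their chromosome were taken, with no other filter, which gave 270 of 3516 regions (7.68%, exact 95% binomial interval 6.82 to 8.61%). The list comes from HT22, an immortalised mouse hippocampal cell line, stably transfected either with pSV40-zeo-BirA-V5 alone (the BirA line) or with pSV40-zeo-BirA-V5 and pEF-FLBIO-Klf9 (the BirA/FLBIO-Klf9 line). BirA is a bacterial biotin ligase, so both lines carried the enzyme and only the second carried the tagged factor. Cells were kept under zeocin, or zeocin with puromycin for the second line, fixed with 1% paraformaldehyde and with a protein crosslinker at 25 mM, and their chromatin was sheared to 200 to 1000 bp. Each line gave 1 input and 4 pulldown libraries, 10 in all, but the list holds no value for any of them. The tagged factor in the BirA/FLBIO-Klf9 line came from a transfected construct under the promoter named in its plasmid. The labels do not say whether a line is 1 clone. The depth, the spread between pulldowns and the signal in the BirA line are unknown here, and no value below has a replicate error.

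Klf9 belongs to the Krüppel-like factors, a family whose zinc fingers contact GC-rich DNA such as the GC box and the CACCC box, both common in promoters. It is known in neurons as a gene switched on by glucocorticoid and thyroid hormone and as a factor that mostly represses transcription. Chromosome 7 of the mouse is known for large families of chemosensory receptor genes, which are used in sensory neurons of the nose, and for many zinc-finger genes. Coordinates below are those of the deposited file, read as 1-based with both ends included. The submitters' processing notes name mm8 as the genome build. Without a matching genome or annotation the regions are named by position alone. Their bases and the genes, exons or introns at them are not reported.

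The 270 regions reached from base 3295621 to base 145112680, a span of 142 Mb, and covered 236 kb or 0.166% of it. Among the 20 chromosomes of the list, chromosome 7 had rank 3 by number of regions, after chromosome 11 with 401 and chromosome 5 with 280. Over its listed span it held 1.90 regions per Mb, the fifth highest of 20 values that ran from 0.268 on chromosome X to 3.39 on chromosome 11, with a median of 1.42. Counted per gene, its place was lower. There were 13.3 regions per 100 protein-coding genes of the GRCm38 RefSeq table, rank 12 of 20, where the values ran from 2.80 to 27.7 with a median of 15.2. Chromosome 5, with a nearly equal 1.88 regions per Mb, had 22.1 regions per 100 genes.

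**Figure D1:**
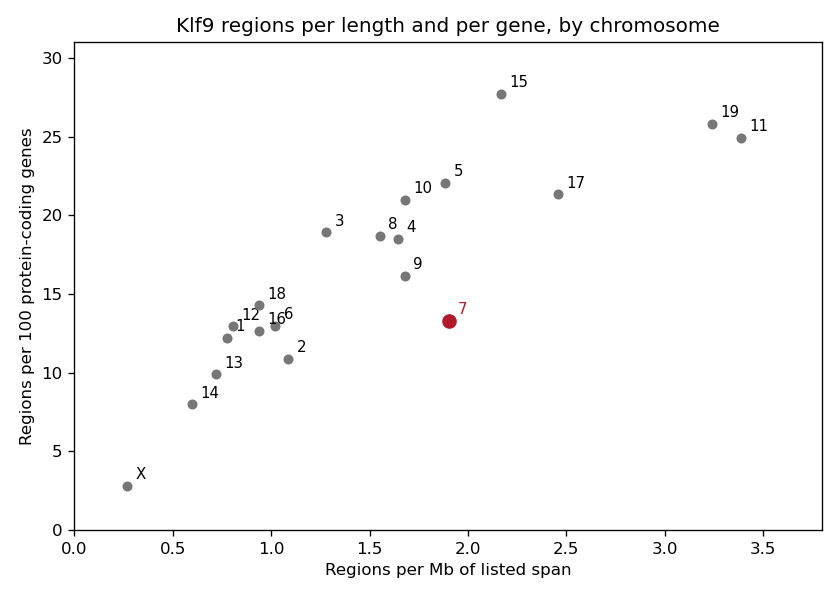
Regions per Mb of listed span (x axis) against regions per 100 protein-coding genes (y axis), with 1 point per chromosome and no error bars. Chromosome 7 (red) lies at 1.90 and 13.3, to the right of chromosomes with a similar number per gene and well below chromosome 5, which has 1.88 regions per Mb and 22.1 per 100 genes.

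Chromosome 7 carries many genes for its length. It had 2030 protein-coding genes in the GRCm38 table, the most of any chromosome. By symbol, 417 of them were olfactory (Olfr) or vomeronasal (Vmn) receptor genes. Any receptor gene under another symbol was counted with the other genes here and below. Olfactory receptors detect odorants and vomeronasal receptors detect pheromones. The 239 olfactory receptor genes were 21.5% of the family in the table, second to the 287 on chromosome 2. The 178 vomeronasal receptor genes were 50.1% of those named Vmn, against 60 on chromosome 6, the next highest. Of 457 genes named Zfp, Zscan or Zbtb, which encode zinc-finger proteins, 103 (22.5%) were on chromosome 7, and chromosome 17 followed with 51. Of 17 numbered Klf genes 1 was on this chromosome, Klf13, while Klf9 itself is on chromosome 19.

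Set against protein-coding genes, chromosome 7 would have held 326 regions in proportion to its genes and held 270, a ratio of 0.828 (exact 95% binomial interval 0.735 to 0.928). With the receptor genes left out of every chromosome, 278 would correspond to its share, and the ratio was 0.972 (0.864 to 1.09). The density was then 16.7 regions per 100 remaining genes, against 22.3 on chromosome 5 and 26.3 on chromosome 11. This was rank 11 of the 20 chromosomes with regions, whose values ran from 2.82 on chromosome X to 28.35 on chromosome 19. Against genes of all types the ratio was 0.921 (0.818 to 1.03). Against the listed span it was 1.32 (1.17 to 1.48), so the side of 1 on which chromosome 7 fell depended on the reference. The gene counts include chromosome X, with 27 regions, and chromosome Y, with 0. On autosomes alone, the ratio to protein-coding genes was 0.788 (0.700 to 0.883). All these intervals treat regions as independent and cover counting error only, and no test was made.

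Promoter sequences gave 2 further references, chosen after the data were seen. The RefSeq table for GRCm38 holds windows from 250 bases before to 50 bases after the gene start, and 1742 of the 2030 protein-coding genes of chromosome 7 (85.8%) were matched to at least 1 window. Chromosome 18 was left out of both sides of this comparison, as no promoter windows were available for it. Of the genes on the other chromosomes, 81.8% were matched. The GC box, searched as GGGCGG on both strands, was present for 704 of the 1742 genes (40.4%), compared with 49.2% of all 17492 matched genes. Without receptor genes the share on chromosome 7 was 51.2% (701 of 1370 genes), compared with 53.0% of all such genes. Among the receptor genes of chromosome 7, 3 of 372 (0.806%) had it, close to the 10 of 1267 (0.789%) over all receptor genes matched.

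The sequence CACGCCC, a core of the consensus of Krüppel-like factors, was searched in the same way. It ends in the same 5 letters, CGCCC, as the GC box read on the other strand, although no stretch of bases can match both at those letters. It was found for 168 genes of chromosome 7 (9.64%), compared with 12.4% of all matched genes. Without receptor genes these shares were 12.3% and 13.4%, and 0 of the 372 receptor genes of chromosome 7 and 2 of all 1267 had it. The short box CACCC occurred for 991 genes of chromosome 7 (56.9%) and 61.7% of all. Without receptor genes the order turned, to 66.7% on chromosome 7 and 64.8% of all such genes, and among receptor genes the shares were 20.7% and 21.5%. Against genes with a GC box in the promoter the ratio for chromosome 7 was 0.959 (0.852 to 1.07), and against genes with CACGCCC it was 1.01 (0.900 to 1.13). Both intervals include 1. A match describes the letters of a promoter, and no region was joined to a promoter.

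**Figure D2:**
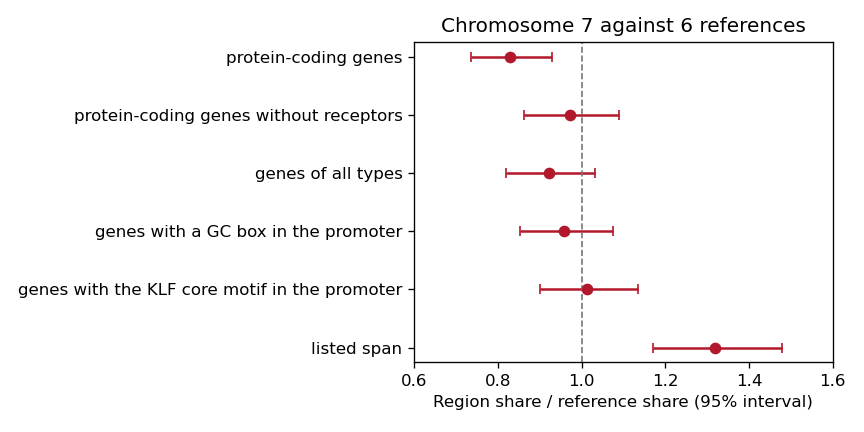
Ratio of the chromosome's share of regions to its share of 6 references (x axis, linear, starting at 0.6), with exact 95% binomial intervals as bars and a dashed line at a ratio of 1. The value is 0.828 against all protein-coding genes, between 0.921 and 1.01 against 4 other gene sets, and 1.32 against the listed span.

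The regions on chromosome 7 were mostly of 680 to 1020 bp. Their median width was 884.5 bp (95% interval from order statistics 839 to 929 bp), the quartiles were 680 and 1020 bp, and the mean was 874 ± 318 bp (SD over 270 regions). Elsewhere in the list the median was 909 bp (890 to 920 bp, 3246 regions), within the interval for chromosome 7, which ranked 13 of 20 by median width. Exactly 680 bp was the most frequent width, with 49 regions (18.1%, against 618 of 3246 on the other chromosomes). It was followed by 1020 bp with 39 regions (14.4%, interval 10.5 to 19.2%, against 17.4%) and 1360 bp with 16 regions. These are multiples of 340 bp. Of the 270 regions, 104 began and ended on a grid of 340 bp, 125 had 1 boundary on it and 41 had none, and for the first of these the width can only be a multiple of 340 bp.

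**Figure D3:**
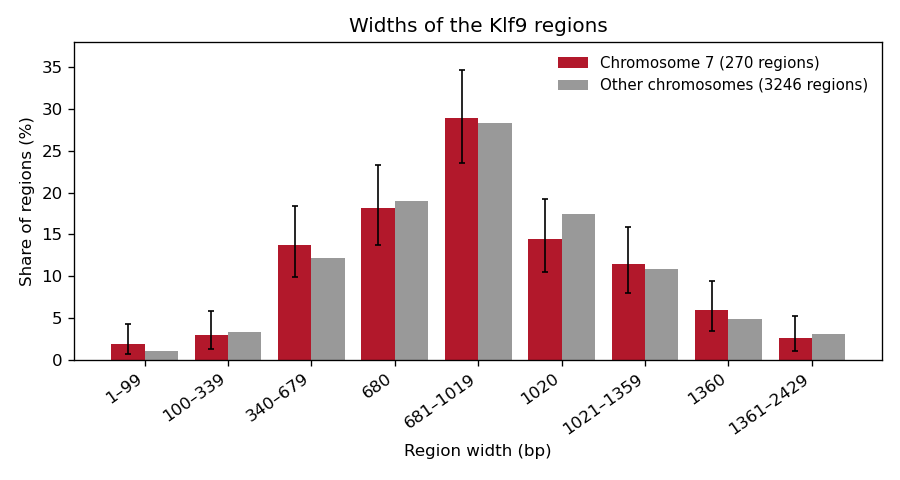
Share of regions (y axis, percent) in 9 width classes (x axis, bp) on chromosome 7 (red, with exact 95% binomial intervals) and on the other 19 chromosomes (grey). In each of the 9 classes the grey bar lies within the interval of the red one.

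The widest region of the entire list was on this chromosome, at chr7:15470292-15472720 with 2429 bp. It began 971 bp after another region and was the last of a group of 3. The next widest, at chr7:109912481-109914520 with 2040 bp, stood alone, with its nearest neighbour 97.6 kb away. These 2 regions were apart from the rest, since the next measured 1540 bp (chr7:18430041-18431580).

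Widths of 1539 bp at chr7:113159642-113161180 and 1529 bp at chr7:100805752-100807280 followed, both in regions with no other within 100 kb. The region at chr7:29988012-29989511 measured 1500 bp and that at chr7:63815912-63817391 measured 1480 bp, and each lay 10 bp from a neighbour. The last of the 10 widest had 1360 bp, at chr7:15431241-15432600, chr7:15941581-15942940 and chr7:18787041-18788400, the first 3 by position of the 16 regions of that width. Of these 10 regions, 6 had no other within 10 kb and 4 belonged to groups.

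At the other end, 13 regions were narrower than 340 bp, and none of them stood alone. All 13 had a neighbour within 10 kb, and for 11 it was 10 bp away. On the other chromosomes 130 of 142 such regions had a neighbour within 10 kb. The 5 regions under 100 bp measured 9 bp (chr7:127536712-127536720), 11 bp (chr7:49114701-49114711), 40 bp (chr7:28091481-28091520), 59 bp (chr7:45575242-45575300) and 89 bp (chr7:101844532-101844620). Of these, 4 lay 10 bp from the next region and the region of 40 bp lay 51 bp from it. All 5 are shorter than the 200 bp of the shortest fragments that the labels give.

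Regions 10 bp from another had the lowest median width of the classes of distance to the nearest region. The 59 regions that lay 10 bp from a neighbour had a median of 769 bp (611 to 879 bp), and the 28 with a nearest gap of 11 bp to 10 kb had 794 bp (680 to 1009 bp). The 113 regions with a nearest gap over 10 kb and up to 100 kb had a median of 940 bp (890 to 1020 bp). For the 66 regions with over 100 kb and up to 1 Mb it was 909.5 bp (749 to 1020 bp). The 4 regions beyond 1 Mb had 804 bp (680 to 1020 bp). The interval for regions 10 bp from a neighbour lay below that of the class from 10 to 100 kb and overlapped those of the other classes. On the other chromosomes the class at 10 bp also had the lowest median, 729 bp (679 to 761 bp). The class from 11 bp to 10 kb had the highest there, 969 bp (919 to 1020 bp, 377 regions), followed by 959 bp from 10 to 100 kb, 939 bp up to 1 Mb and 879.5 bp beyond it.

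Successive regions on chromosome 7 were separated by 269 gaps, with a median of 90.1 kb. This was the fifth shortest median of the 20 chromosomes, whose values ran from 53.3 to 591 kb. The median was 139 kb on chromosome 5, where regions were as dense per Mb, and 66.1 kb on chromosome 11. Gaps over 10 kb and up to 100 kb made up 34.2% of those on chromosome 7, 27.6% on chromosome 5 and 34.8% on chromosome 11. Gaps over 1 Mb numbered 30 (11.2%), against 32 on chromosome 5 (11.5%) and 26 on chromosome 11 (6.50%). Exactly 10 bp separated 31 pairs of neighbours, or 11.5% of gaps, second to chromosome 11 with 13.2%.

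**Figure D4:**
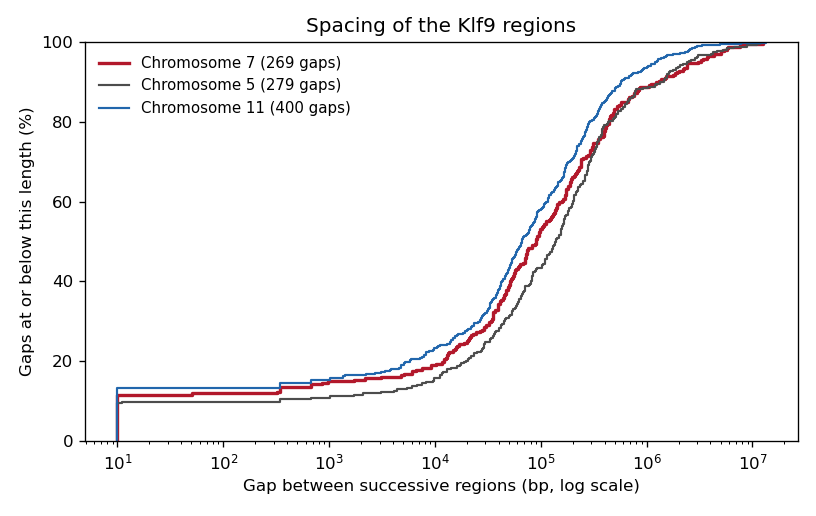
Cumulative share of gaps (y axis, percent) at or below a length (x axis, bp, log scale) for chromosomes 7, 5 and 11. The step at 10 bp is 11.5% on chromosome 7, 9.32% on chromosome 5 and 13.2% on chromosome 11, and the medians are 90.1, 139 and 66.1 kb.

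On chromosome 7, 87 regions (32.2%, interval 26.7 to 38.2%) had another within 10 kb, edge to edge. The share was 29.7% (28.1 to 31.3%) over the other chromosomes, 27.1% (22.0 to 32.8%) on chromosome 5 and 40.4% (35.6 to 45.4%) on chromosome 11. The interval for chromosome 7 overlapped all 3. For 59 of the 87 the nearest region was 10 bp away. With regions less than 340 bp apart joined, the chromosome had 237 intervals with a median width of 959 bp (901 to 1020 bp), and 34 of them (14.3%, 10.1 to 19.5%) had a neighbour within 10 kb. The joined share was 14.5% on the other chromosomes, 13.0% on chromosome 5 and 20.4% on chromosome 11. Joining lowered the share on each of them, largely by construction, since it merges the closest pairs.

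Linked wherever gaps were at most 10 kb, the regions formed 183 isolated regions and 36 groups. There were 24 pairs, 10 groups of 3, 1 group of 4 and 1 group of 5. Pairs extended over 1020 to 11169 bp with a median of 1685 bp, and 17 of the 24 became 1 interval on such joining. The groups of 3 extended over 2061 to 10569 bp, and 3 of the 10 became 1 interval. In all, 20 of the 36 groups were of this kind, and 7 groups were unchanged by joining.

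The group of 5 extended over 12.1 kb, of which 19.1% was covered. Its first members, chr7:28080072-28080751 (680 bp) and chr7:28080762-28080940 (179 bp), were 10 bp apart. After a gap of 6661 bp came chr7:28087602-28088420 (819 bp). A further 3060 bp on lay chr7:28091481-28091520 (40 bp) and, 51 bp after it, chr7:28091572-28092160 (589 bp). The group thus consisted of 3 separate places.

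The group of 4 extended over 10.1 kb. The regions chr7:45573712-45574280 (569 bp) and chr7:45574621-45575231 (611 bp) were 340 bp apart, and chr7:45575242-45575300 (59 bp) followed after 10 bp. Then chr7:45582781-45583800 (1020 bp) lay alone after a gap of 7480 bp. Here too joining left 3 intervals.

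The first 3 groups of 3 by position were more compact. The group with the widest region ran from chr7:15467621-15468471 (851 bp) and chr7:15468482-15469320 (839 bp), 10 bp apart, to chr7:15470292-15472720, and 80.8% of its 5100 bp was covered. At chr7:18428762-18429431 (670 bp), chr7:18429442-18429700 (259 bp) and chr7:18430041-18431580 (1540 bp) the gaps were 10 and 340 bp, and 87.6% of 2819 bp was covered. At chr7:18517761-18518191 (431 bp), chr7:18518202-18519361 (1160 bp) and chr7:18519372-18520140 (769 bp) both gaps were 10 bp, so that 99.2% of 2380 bp was covered. After joining, the widest interval of the chromosome was chr7:63815242-63818680, 3439 bp made of 3 regions, which exceeded the widest region as deposited.

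Along the chromosome the regions alternated between crowded and empty stretches. Counted by midpoint in steps of 10 Mb from the start of the chromosome, there were 10, 37, 45, 12 and 38 regions in the first 50 Mb, and 0 from 50 to 60 Mb. The next 4 steps, from 60 to 100 Mb, held 9, 4, 21 and 15. From 100 Mb on the counts were 14, 11, 33, 6 and 15. The first 50 Mb, which lie nearest the centromere in the mouse, therefore held 142 of the 270 regions (52.6%, interval 46.5 to 58.7%), and the step from 120 to 130 Mb held the most of the remainder. The listed span was 141.8 Mb, and no other chromosome is given for comparison. The steps were chosen after the data were seen, and the interval treats regions as independent. Median widths per step ran from 680 bp (40 to 50 Mb, 38 regions, interval 680 to 890 bp) to 1020 bp. The value of 1020 bp was found from 100 to 110 Mb (interval 549 to 1360 bp) and from 140 Mb on (680 to 1020 bp). All 3 intervals include the median of 884.5 bp for the whole chromosome. Of the 38 regions from 40 to 50 Mb, 20 were in groups. Joined, the regions of this step formed 30 intervals with a median of 895.5 bp, but joining widens regions by construction. Whether close pieces account for the low value was not tested.

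In windows of 1 Mb, 68 of the 143 windows between the first and last region held at least 1 region. Of these, 52 held 1 to 4 and 16 held 5 or more, and the 16 contained 155 regions (57.4%). The 13 fullest windows were enough to hold 50% of the regions of chromosome 7, near the median of 12 over the 20 chromosomes (range 4 to 19), with 18 on chromosome 5 and 19 on chromosome 11. The 5 fullest held 27.0% of its regions, where the median over chromosomes was 27.2%. The 7 windows with 10 or more regions contained 93 (34.4%). The fullest window, from 18 to 19 Mb, had 22 regions, rank 4 among the maxima of the 20 chromosomes, against 14 on chromosome 5 and 20 on chromosome 11.

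**Figure D5:**
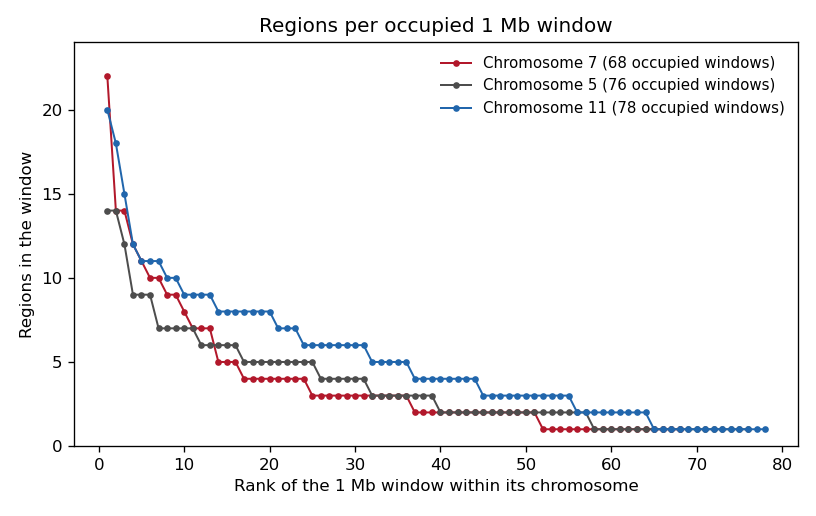
Regions per occupied 1 Mb window (y axis) against the rank of the window within its chromosome (x axis) for chromosomes 7, 5 and 11. Chromosome 7 starts at 22 regions, above the 14 of chromosome 5, and falls to 4 regions by rank 17, below chromosome 5.

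The window from 18 to 19 Mb was filled over 915 kb, from chr7:18068621-18069300 to chr7:18982541-18983220. It contained 5 groups with 12 regions in all and 10 isolated regions, and after joining 19 intervals remained. The widths ran from 259 to 1540 bp with a median of 850 bp. Its isolated members included chr7:18787041-18788400 and chr7:18823081-18824440, both of 1360 bp and 34.7 kb from their nearest region.

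The next windows differed in makeup. From 44 to 45 Mb there were 14 regions, 9 of them in 4 groups, which joining reduced to 9 intervals. From 80 to 81 Mb there were also 14 regions, 12 of them isolated, and joining left all 14. Counts of 12 and 11 regions were found from 127 to 128 Mb and at 45 to 46 Mb, with 9 intervals each after joining. The 2 windows with equal counts thus ranked apart once close pieces were counted once.

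Occupied windows adjoined each other in 24 runs. The run with the most regions, from 24 to 31 Mb, held 50 regions (18.5%) in 7 windows, and 43 intervals after joining. It was followed by the runs from 43 to 47 Mb with 33 regions, from 125 to 129 Mb with 27, and from 18 to 20 Mb and from 96 to 103 Mb with 23 each. The run from 138 to 146 Mb was longer but thin, with 18 regions in 8 windows.

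The longest stretch with no region, 12.7 Mb, lay between bases 49647201 and 62298382. Others were 8.48 Mb long (70235980 to 78720412), 7.65 Mb (102124780 to 109777092), 5.88 Mb (5988000 to 11866001) and 5.75 Mb (84257730 to 90004801). These 5 stretches made up 28.5% of the listed span, and the 30 gaps over 1 Mb made up 74.6%. Longest gaps on the other chromosomes ran from 5.12 to 29.7 Mb, and chromosome 7 had rank 9 of 20.

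Few regions on chromosome 7 were far from all others. Only 4 (1.48%) had no other within 1 Mb, compared with 5.11% on the other chromosomes. That pooled share includes sparser chromosomes, down to 0.268 regions per Mb on chromosome X against 1.90 on chromosome 7. Such regions were also few on chromosomes 5 and 11, so the low share is not particular to chromosome 7. The 4 on chromosome 7 were chr7:90004801-90005820 (1020 bp, nearest region 2.43 Mb away), chr7:133614901-133615580 (680 bp, 2.41 Mb), chr7:70235212-70235980 (769 bp, 2.41 Mb) and chr7:62298382-62299220 (839 bp, 1.52 Mb). The fifth most isolated, chr7:139966592-139967460 with 869 bp, was 825 kb from its nearest. Of the first 4, all but the region at 133614901 border one of the 5 longest empty stretches, and their widths were within the middle range for the chromosome.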

How the data were processed

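Klf9 chromatin was recovered on streptavidin and sequenced, with 1 list for all 10 libraries. The deposited values are of another kind than counts: the first and last base of each region, without a score. Per the submitters' processing notes the tools were CASAVA, FastQC, Bowtie and bedtools and the build mm8. The sources used here name no peak caller or threshold. Depth is unknown.

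Widths, gaps, groups (10 kb) and windows (1 Mb, by midpoint) were computed with Python 3.11.15, numpy 2.4.6, pandas 2.3.3 and scipy 1.17.1, after the functions were tested on simulated data. Intervals are 95%, Clopper-Pearson or from order statistics. No significance test was made, since the list holds no samples. Genes and promoters of GRCm38 were counted per chromosome and no position was converted.

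Named regions followed a rule: the 10 widest, those under 100 bp, groups of 4 or more with members of the 5 largest, and the 5 fullest windows, longest empty stretches and most isolated regions. The members, lists and rule were chosen with earlier results of these data known. Runs of windows, steps of 10 Mb, chromosome 5 as a comparison and promoter references were added after the data were seen.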

Additional observations from a re-analysis of the deposited data

How the results depend on the processing

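Of 34 alternatives, 20 stayed within the 95% interval of the reported value or, for counts, within 1.5 times it. Among these, the ratio against genes of all types, 0.921, has an interval that includes 1, unlike the 0.828 reported. Joining regions less than 340 bp apart moved the median width to 959 bp, the share with a neighbour within 10 kb to 14.3%, the groups from 36 to 16 and the density to 1.67 regions per Mb. Those shifts follow largely from the merging itself. Keeping regions of at least the median width of the list gave, largely by construction, 1020 bp, 7.87%, 5 groups, 10 regions in the fullest window and 0.896 regions per Mb. A distance of 20 kb gave 41.1%. The ratio to gene share moved to 0.972 without receptor genes and 0.959 for genes with a GC box, and reversed to 1.01 for genes with CACGCCC, with an interval including 1, and to 1.32 for listed span; the cause was not tested. Windows started 0.5 Mb later held at most 16 regions. No paired analysis was possible because libraries have no values of their own in the list, and none could be left out in turn. Neither depth nor enrichment in the BirA line was examined.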

Other observations

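The order of genes on chromosome 7 in the GRCm38 table shows how its receptor families are arranged. Of its 417 receptor genes, 347 (83.2%) stood in 23 runs of 5 or more with no other protein-coding gene between them. The longest run held 42 olfactory receptor genes, from Olfr467 to Olfr519, between Ovch2 and Nlrp10. Among the runs made only of vomeronasal receptor genes the longest had 16 genes, from Vmn2r30 to Vmn2r37, next to the chloride transporter gene Clcn4. Runs of 25 and 16 olfactory receptor genes ended at Hbb-bt and began after Hbb-y, which are beta-globin genes. Whether these runs coincide with the empty stretches of the list was not tested, because the table and the list are on different builds.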
